A study of Mus musculus with 28 samples.

Results

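The NuA4 and MOZ acetyltransferase complexes add acetyl groups to histones, and 10 genes that encode their subunits were followed here through a short treatment with trichostatin A (TSA), a drug that blocks histone deacetylases. The genes were Kat5, Epc1, Epc2, Ing3 and Yeats4 of NuA4, Kat6a, Kat6b, Brpf1 and Ing5 of MOZ, and Meaf6, which both complexes share. They are 10 of the 19938 genes that the arrays measured under a single symbol. They were picked with their TSA values already known. Every TSA value of these 10 genes below, and whether it passed a threshold, is therefore a description and counts as no test. Novelty and genotype, which played no part in the choice, were tested. Each gene was read by the only transcript cluster on the array that carried its symbol alone.

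The study profiled whole hippocampi on 28 Affymetrix Mouse Gene 1.0 ST arrays, with the RNA of 3 to 4 mice combined on every array. The mice were C57/DBA F1 hybrid females of 3 months, either wild type or cbp+/-, which carry a single intact copy of the gene for the acetyltransferase CBP. TSA was injected into the abdomen at 2.4 mg/kg and the tissue was taken 75 min later. Mice of the novelty groups explored a plexiglas box furnished with tubes and toys for 1 h, and those that also received TSA entered the box 15 min after the injection. For each genotype there were 2 standard-cage arrays of mice labelled naive and 3 arrays each of standard cage with vehicle (DMSO in saline), standard cage with TSA, novelty with vehicle and novelty with TSA. The labels do not say whether the CBP allele was confined to any cell type, and a whole hippocampus mixes neurons, glia and vessels, so fewer cells of a type and less RNA per cell cannot be told apart. Errors and p-values therefore measure how pools, not single mice, varied, and the labels do not say that pools were independent in other ways.

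In NuA4, also called the TIP60 complex, the catalytic subunit KAT5 acetylates histones H4 and H2A, the enhancer of polycomb proteins EPC1 and EPC2 hold the catalytic module together, and ING3 and YEATS4 carry domains that bind methylated or acetylated histone tails. In MOZ complexes the enzymes KAT6A (MOZ) and KAT6B (MORF) acetylate histone H3, BRPF1 is the scaffold that joins the enzyme to the other subunits, and ING5 and MEAF6 complete the core. Acetyltransferases and deacetylases act against each other on the same lysines, and both have been studied for their part in memory in the hippocampus.

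To set the start regions of the genes side by side, promoters are shown for the 4 genes with the lowest TSA values and for Brpf1, the 1 gene that was higher. Sequences were taken from RefSeq's GRCm38.p6 promoter table, which held 8 of the 10 genes and no entry for Epc1 or Kat6a. The most upstream start of each gene was used. Kat5, Ing3 and Kat6b had 2 listed starts, and the downstream one was not examined. Each line below gives the 150 bases just before the start of transcription, 5′ to 3′ on the gene's strand, with matches on either strand to 4 motifs in capitals: TGACGTCA (the cAMP response element, CRE), CCAAT, GCATGCGC (the core bound by NRF1) and GGGCGG (the GC box).
Epc2: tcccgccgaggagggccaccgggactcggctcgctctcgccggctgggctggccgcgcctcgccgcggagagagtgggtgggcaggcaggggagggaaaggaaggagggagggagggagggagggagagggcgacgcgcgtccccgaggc
Ing5: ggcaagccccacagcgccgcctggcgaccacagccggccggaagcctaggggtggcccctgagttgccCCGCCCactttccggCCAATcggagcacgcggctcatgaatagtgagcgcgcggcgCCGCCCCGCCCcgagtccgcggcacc
Yeats4: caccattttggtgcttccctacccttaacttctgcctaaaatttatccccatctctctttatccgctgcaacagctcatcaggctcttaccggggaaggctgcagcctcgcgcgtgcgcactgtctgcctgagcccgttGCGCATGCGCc
Ing3: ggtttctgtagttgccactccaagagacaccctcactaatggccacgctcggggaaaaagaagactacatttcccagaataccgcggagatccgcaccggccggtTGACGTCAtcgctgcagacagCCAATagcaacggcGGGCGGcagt
Brpf1: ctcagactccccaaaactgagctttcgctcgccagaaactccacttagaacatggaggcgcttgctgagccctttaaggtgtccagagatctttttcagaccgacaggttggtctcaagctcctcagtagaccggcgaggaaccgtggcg
The Epc2 window (chr2:49451336-49451485, plus strand) and the Brpf1 window (chr6:113306987-113307136, plus strand) held none of the 4 motifs. The Ing5 window (chr1:93803815-93803964, plus strand) held 1 CCAAT and 3 GC boxes. The Yeats4 window (chr10:117224508-117224657, minus strand) held 2 NRF1 cores that overlap on opposite strands. The Ing3 window (chr6:21949421-21949570, plus strand) held 1 CRE, 1 CCAAT and 1 GC box, and its CRE lay 45 bases before the start.

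Across the full 250 bases upstream, a CRE stood in 1 of the 8 promoters, against 1.60% of all 27025 promoters used, 1 per gene. CCAAT stood in 4 of 8 against 34.5%, the GC box in 5 of 8 against 33.0%, the NRF1 core in 1 of 8 against 2.31%, and CCGGAAG, a core bound by ETS factors, in 2 of 8 against 7.07%. TATAAA stood in 0 of 8, against 13.0% of all promoters. The 8 promoters held 11 to 36 CG pairs in that window, where the median over all promoters was 6 and the upper quartile 16. None of these motifs was present in all 8 promoters.

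Over all 35556 transcript clusters, array medians lay between 5.46 and 5.63 on the log2 scale and arrays correlated at 0.968 to 0.995. No pair of arrays was identical. The arrays fell into 4 sets: the naive arrays formed set 1, and vehicle arrays 3, 4 and 5 of the standard cage went with arrays 1, 2 and 3 of the other groups as sets 2, 3 and 4. After group means were subtracted, arrays of different groups correlated at 0.42 to 0.81 within a set and at -0.63 to -0.01 between sets. The subtraction itself makes values between sets negative when those within sets are positive. The labels do not say what a set was, so it is used here only as a block. Averaged TSA differences are read within sets. The mean log2 level of 5 neuron markers was 9.53 to 10.2 over the TSA and vehicle arrays. Choroid plexus markers, from a tissue that borders the hippocampus, were raised on 3 arrays (wild-type novelty TSA 1, cbp+/- standard-cage vehicle 3 and cbp+/- standard-cage TSA 1). Without those 3 arrays the averaged TSA difference was -0.47 ± 0.08 for Epc2, -0.38 ± 0.07 for Ing5 and 0.11 ± 0.06 for Brpf1 (SE), beside the values from all arrays given below. Crebbp, the gene of the genotype, was not lower in cbp+/- mice: its log2 level was 9.45 ± 0.27 (SD, n = 14) against 9.25 ± 0.31 (n = 14) in wild type, a difference of 0.21 ± 0.05 (SE, adjusted p = 0.066 with limma), and where its probes lie relative to the altered part of the gene is not known here, so this does not check the genotype labels.

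After TSA, transcripts for the EPC scaffolds of NuA4, its readers Ing3 and Yeats4 and the MOZ reader Ing5 had the 5 lowest values of the 10. Averaged over the 4 backgrounds (wild type or cbp+/-, in the standard cage or after novelty), Epc2 was lower by 25.9% and Ing5 by 24.8%, followed by Yeats4 at 22.3%, Ing3 at 20.5% and Epc1 at 17.3%. The enzyme genes Kat6b and Kat5 were lower by 12.5% and 11.9%. The 95% intervals of Kat6a and Meaf6 included 0. Brpf1, at 109.3% of its level without TSA, did not pass the threshold. The median log2 difference of the 10 genes was -0.23, where the median over all genes was 0.00. With array set as a block, 7 of the 10 passed an adjusted p under 0.05 in the lower direction, as did 1.85% of all genes. Without the block Epc1, Epc2 and Ing5 passed, and 0.216% of all genes did. Of the 7, Kat5 and Yeats4 did not pass without array set 2, Kat5, Yeats4 and Kat6b did not without set 3, which left 4, and Kat6b did not without set 4. Since the genes were chosen on this contrast, nothing is read from those counts.

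**Figure D1:**
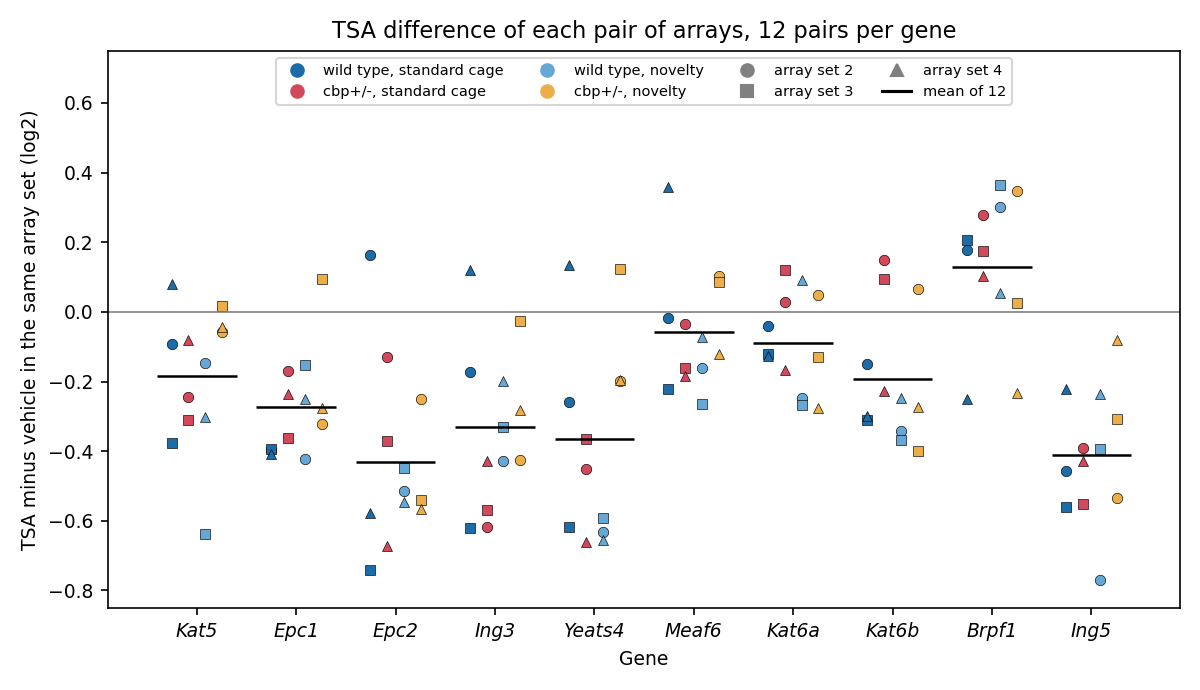
TSA differences of the 10 genes in each of the 12 pairs of arrays from one set: the vertical axis is the TSA array minus the vehicle array of the same set and background on the log2 scale, colour gives the background, shape the array set and the bar the mean of the 12. All 12 points of Ing5 lie below 0, 11 of 12 do for Epc1, Epc2 and Ing3, and 10 of 12 lie above 0 for Brpf1.

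Epc2, a scaffold of the NuA4 catalytic module, had the lowest TSA value of the 10 and ranked 7 of 19938 genes counted from the lowest. In wild-type mice in the standard cage, its log2 level with vehicle was 7.73, 7.85 and 8.15 in sets 2, 3 and 4, and with TSA it was 7.90, 7.11 and 7.57. Set 2 went the other way there, by 0.16, and the groups overlapped. It was the only pair of the 12 in which Epc2 was higher with TSA.
In cbp+/- mice in the standard cage, vehicle arrays read 8.06, 7.97 and 8.38 for Epc2 in the same order of sets, and TSA arrays 7.93, 7.60 and 7.71. After novelty, the wild-type vehicle arrays read 8.24, 7.77 and 8.08 and the TSA arrays 7.72, 7.32 and 7.54. These groups did not overlap in either case, although the gap between the nearest arrays was small. After novelty in cbp+/- mice, vehicle arrays read 8.04, 7.70 and 8.40 and TSA arrays 7.79, 7.17 and 7.83, so the groups overlapped because set 3 was low in both. The naive arrays stood high, at 8.30 and 8.38 in wild type and 8.18 and 8.31 in cbp+/- mice. Over the 12 pairs the Epc2 difference was -0.43 ± 0.07 (SE; 95% interval -0.57 to -0.29).

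Ing5, a PHD-finger reader of MOZ complexes, was the only one of the 10 that was lower with TSA in every pair, from -0.77 to -0.08. On the whole array 82 genes, 0.411% of all, had 12 negative differences of 12. In wild-type mice in the standard cage, its log2 level in sets 2, 3 and 4 was 6.90, 6.64 and 6.18 with vehicle and 6.44, 6.08 and 5.96 with TSA. In cbp+/- mice in the standard cage it was 6.97, 6.84 and 6.49 with vehicle and 6.58, 6.29 and 6.06 with TSA. Groups overlapped in both standard-cage comparisons, because set 4 was low with vehicle and with TSA alike.
After novelty, wild-type arrays read 6.92, 6.84 and 6.62 with vehicle and 6.15, 6.45 and 6.38 with TSA. In cbp+/- mice the novelty arrays read 6.74, 6.84 and 6.55 with vehicle and 6.20, 6.53 and 6.47 with TSA. No TSA array reached the lowest vehicle array in either genotype, with 6.53 against 6.55 the nearest approach. Naive arrays were at 6.99 and 6.82 in wild type and at 6.95 and 6.63 in cbp+/- mice. The Ing5 difference over the 12 pairs was -0.41 ± 0.07 (SE; 95% interval -0.56 to -0.27), rank 12 from the lowest of all genes.

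**Figure D2:**
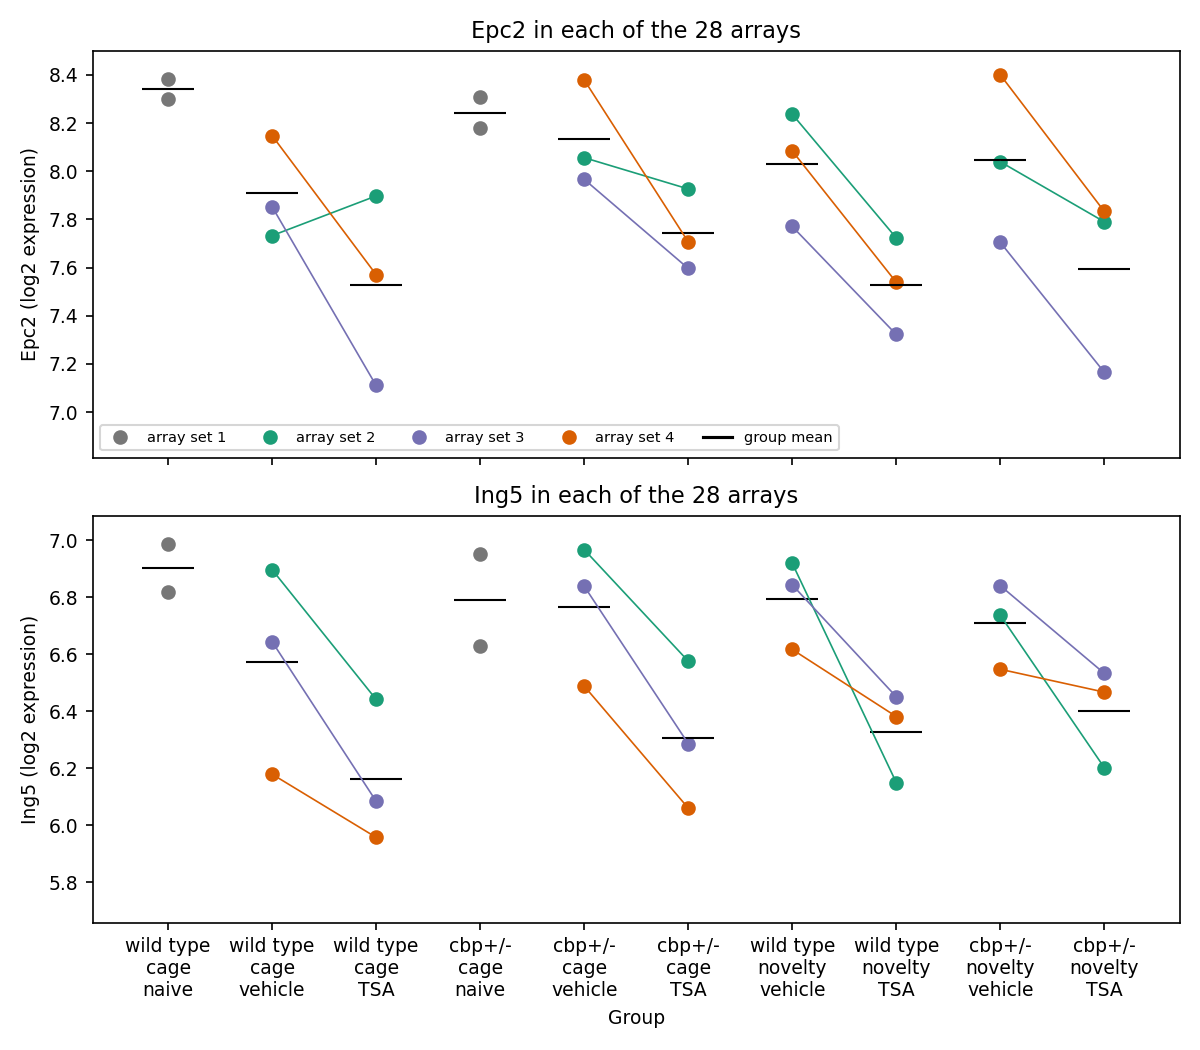
Log2 level of Epc2 (upper panel) and Ing5 (lower panel) on each of the 28 arrays by group; lines join vehicle and TSA arrays of one set and bars are group means. All 12 Ing5 lines slope down from vehicle to TSA, and the Epc2 line of set 2 in wild-type standard-cage mice is the only one of its panel that slopes up, by 0.16.

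Among the other NuA4 readers and scaffolds, Yeats4 (the YEATS-domain reader GAS41) had a median log2 level of 7.24 over the 12 TSA arrays, with a lowest of 6.90 and a highest of 7.89. Over the 12 vehicle arrays the Yeats4 median was 7.56, from 7.16 to 8.09, so the ranges overlapped widely although 10 of 12 pairs were below 0. Its TSA difference was -0.36 ± 0.07 (SE; 95% interval -0.52 to -0.21). Ing3, the PHD-finger reader of NuA4, had a median of 6.71 with TSA (6.21 to 7.20) and 7.01 with vehicle (6.83 to 7.49). The Ing3 difference was -0.33 ± 0.05 (SE; 95% interval -0.44 to -0.23), and 11 of 12 pairs were below 0. In both genes the wild-type standard-cage pair of set 4 was above 0, by 0.12 in Ing3 and 0.14 in Yeats4. Yeats4 was also above 0, by 0.12, in set 3 of cbp+/- mice after novelty.

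Epc1, the second EPC scaffold, had the lowest residual SD of the 10 with the block, 0.087. The SD of its 12 TSA differences, 0.149, was above that of Kat6a, 0.139. The median log2 level of Epc1 was 8.11 over the TSA arrays (7.90 to 8.43) and 8.43 over the vehicle arrays (8.26 to 8.56). In wild-type mice in the standard cage, vehicle arrays read 8.30, 8.30 and 8.49 in sets 2, 3 and 4 and TSA arrays 7.90, 7.91 and 8.08. The 3 differences there lay between -0.41 and -0.39, the tightest agreement of any gene and background among the 10. The overall Epc1 difference was -0.27 ± 0.04 (SE; 95% interval -0.36 to -0.19). A single pair, set 3 of cbp+/- mice after novelty, was above 0, by 0.09.

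The enzyme genes were closer to 0. Kat5 was at a median log2 level of 7.30 with TSA (6.93 to 7.48) and 7.48 with vehicle (7.30 to 7.58), a difference of -0.18 ± 0.05 (SE; 95% interval -0.28 to -0.09). Its lowest array, at 6.93, was the set 3 TSA array of wild-type mice after novelty, whose pair gave -0.64. Kat6b had a median of 7.92 with TSA (7.66 to 8.44) and 8.13 with vehicle (7.91 to 8.34), and differed by -0.19 ± 0.05 (SE; 95% interval -0.29 to -0.10). For Kat6a the medians were 8.21 and 8.29, and the difference of -0.09 ± 0.05 had an interval from -0.19 to 0.01. Meaf6, the small subunit shared by both complexes, had medians of 8.66 and 8.73 and a difference of -0.06 ± 0.06, with an interval from -0.17 to 0.06. The Kat6a interval still holds the value of Kat5, and that of Meaf6 ends just short of it.

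Brpf1, the MOZ scaffold, ran opposite to the rest. Its median log2 level was 7.58 over the TSA arrays (6.81 to 7.79) and 7.37 over the vehicle arrays (6.95 to 7.53), and its difference was 0.13 ± 0.05 (SE; 95% interval 0.03 to 0.23). The mean of its 4 pairs was 0.28 in set 2 and 0.19 in set 3, but -0.08 in set 4, where its level was also lowest. Leaving out set 4 brought the Brpf1 difference to 0.23 ± 0.05, while leaving out set 2 brought it to 0.06 ± 0.06. Without set 4 Brpf1 passed the threshold in the higher direction. Nothing is read from that, since the genes were chosen on this contrast.

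Each background held 3 TSA arrays, so its values are less precise than the average. They come from the fit, in which naive arrays count among the standard-cage controls. Standard-cage values therefore differ from the mean of the 3 pairs of arrays. For Yeats4 the pair means were -0.25 in wild-type and -0.49 in cbp+/- mice, where the fit gave -0.34 and -0.40. The median difference of the 10 genes was -0.27 in wild-type and -0.21 in cbp+/- mice in the standard cage, and -0.32 and -0.14 after novelty; 9, 7, 9 and 8 of the 10 genes were below 0 in those backgrounds in that order. Over all genes the 4 medians lay between -0.01 and 0.03. In single backgrounds the array-set fit called few genes: 0.0401% in wild-type standard cage, 0.0251% in cbp+/- standard cage, 0.0702% in wild type after novelty and 0.0201% in cbp+/- after novelty. Epc1 in the wild-type standard cage (-0.42 ± 0.08) was the only one of the 10 among them.

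The genes were chosen on these 4 backgrounds, so their values here are descriptions, and the SEs are too large to show equal size across backgrounds. In the order wild-type standard cage, cbp+/- standard cage, wild-type novelty and cbp+/- novelty, Epc2 differed by -0.45, -0.33, -0.50 and -0.45, each with an SE of 0.13. Ing5 differed by -0.47, -0.40, -0.47 and -0.31, with SEs of 0.13 to 0.14. Their 95% intervals lay below 0 in all 4 backgrounds, as did those of Ing3, which differed by -0.27, -0.49, -0.32 and -0.24. Yeats4 was the most uneven, at -0.34, -0.40 and -0.63 in the first 3 backgrounds and -0.09 ± 0.15 in cbp+/- mice after novelty. Kat5 ranged from -0.36 ± 0.09 in wild type after novelty to -0.03 ± 0.09 in cbp+/- mice after novelty. Kat6b was lower in wild type in both housings, by -0.27 and -0.32, and at 0.02 ± 0.09 in cbp+/- mice in the standard cage, but at -0.20 ± 0.09 in cbp+/- mice after novelty.

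These unevennesses were measured as the TSA difference in cbp+/- mice minus that in wild type, averaged over housing. This fitted difference also draws on the naive arrays. It was 0.20 for Kat6b (95% interval 0.02 to 0.38) and 0.24 for Yeats4 (-0.05 to 0.53), and the intervals of all genes but Kat6b included 0. Across housing, the TSA difference after novelty minus that in the standard cage had an interval that included 0 for all 10 genes; it was -0.14 for Kat6b (-0.32 to 0.05) and 0.11 for Epc1 (-0.06 to 0.27). The intervals are not adjusted for the 20 that were computed.

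Levels moved between array sets by as much as they did with TSA in several of the genes. From the lowest to the highest mean of sets 2 to 4, the range was 0.60 for Kat6a, 0.59 for Meaf6, 0.58 for Brpf1, 0.49 for Ing3, 0.44 for Yeats4 and 0.40 for Epc2. It was 0.28 for Kat6b, 0.27 for Ing5, 0.15 for Epc1 and 0.07 for Kat5. Among these 3 sets, Kat6a, Kat6b, Brpf1, Meaf6 and Ing5 were lowest in set 4, while Epc1, Ing3, Yeats4, Epc2 and Kat5 were highest there. With the block, the residual SD of Brpf1 was 0.12 against 0.31 without it, and that of Epc2 0.18 against 0.28. TSA and vehicle arrays were spread evenly over these 3 sets. Vehicle and naive arrays were not. Vehicle minus naive in the standard cage was -0.30 for Kat6b, -0.27 for Epc2, -0.23 for Ing3, -0.21 for Epc1 and -0.18 for Ing5. It was -0.07 for Yeats4, 0.00 for Meaf6, 0.12 for Brpf1, 0.13 for Kat5 and 0.14 for Kat6a. Wild-type and cbp+/- mice were at -0.34 and -0.26 for Kat6b, -0.43 and -0.11 for Epc2, and -0.31 and 0.17 for Yeats4. Injection and array set cannot be told apart in those values.

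**Figure D3:**
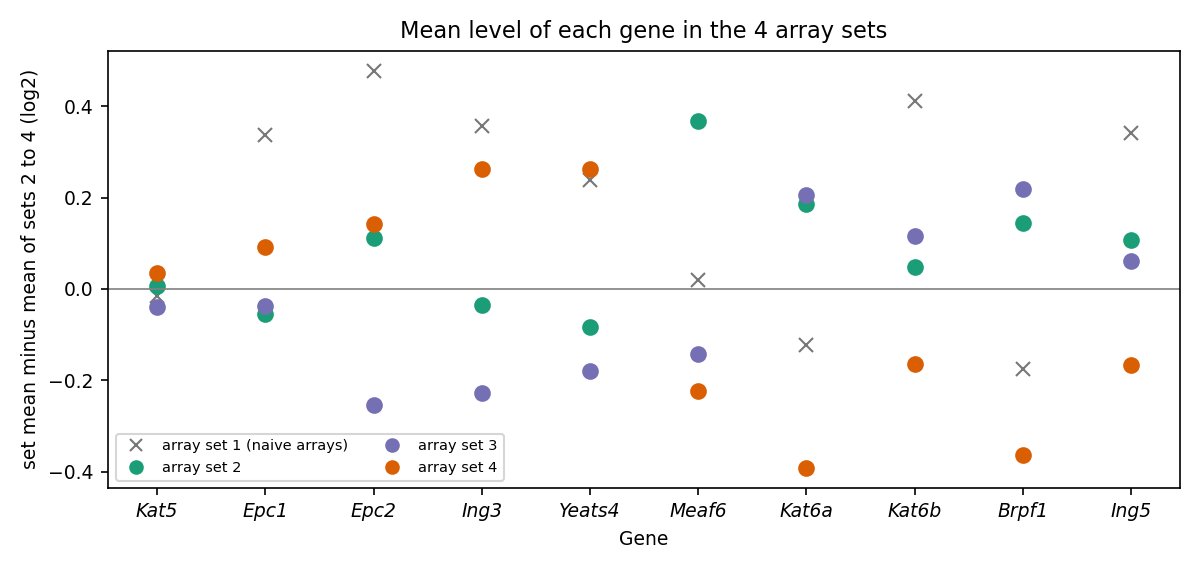
Mean log2 level of each gene in array sets 1 to 4, as the difference from the mean of sets 2 to 4. Meaf6 is highest in set 2, Kat6a and Brpf1 are lowest in set 4 and Kat5 barely moves between sets 2 and 4, with a range of 0.07 over sets 2 to 4.

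For novelty, no difference in the 10 genes was detected at the precision of these arrays. None passed an adjusted p under 0.05 for novelty against standard cage over genotype and drug, a comparison in which limma with the array-set block called 95 genes, 0.476% of all, with 1637 genes at an unadjusted p under 0.05. Ing3 was higher by 0.13 ± 0.05 (SE; higher in 9 of 12 pairs; unadjusted p = 0.015, adjusted p = 0.415) and Kat6b lower by -0.11 ± 0.05 (lower in 10 of 12 pairs; unadjusted p = 0.028, adjusted p = 0.514). For Epc2 the difference was -0.03 with an interval from -0.17 to 0.11, and for Ing5 it was 0.11 with an interval from -0.04 to 0.25. Both intervals exclude a decrease as large as the averaged TSA value of the same gene, a value from the contrast that chose the genes. Smaller decreases are not excluded. Without the block, limma called 38 genes for novelty, 639 had an unadjusted p under 0.05, and 1 of the 10 genes was among the latter.

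For the cbp+/- genotype, no difference in the 10 genes was detected either. None passed the test of cbp+/- against wild type over all conditions, where limma called 132 genes, 0.662% of all, and 2365 genes had an unadjusted p under 0.05. Of the 10, 8 were higher in cbp+/- mice, with a median difference of 0.09, but each by little. Over all 19938 genes the median was -0.01, and 10737 were below 0. Epc1 was higher by 0.10 ± 0.04 (SE, higher in 11 of 12 pairs, unadjusted p = 0.0191, adjusted p = 0.297). Kat6b was higher by 0.10 ± 0.04 (higher in 10 of 12 pairs, unadjusted p = 0.0289, adjusted p = 0.347). All 10 intervals lay between -0.18 and 0.24. Without the block no gene on the array was called for genotype and 518 had an unadjusted p under 0.05, none of them among the 10. The novelty effect did not differ between genotypes in a way the arrays could detect: limma called no gene (0%), with 969 genes at an unadjusted p under 0.05 with the block and 195 without, and the lowest adjusted p among the 10 was 0.916.

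**Figure D4:**
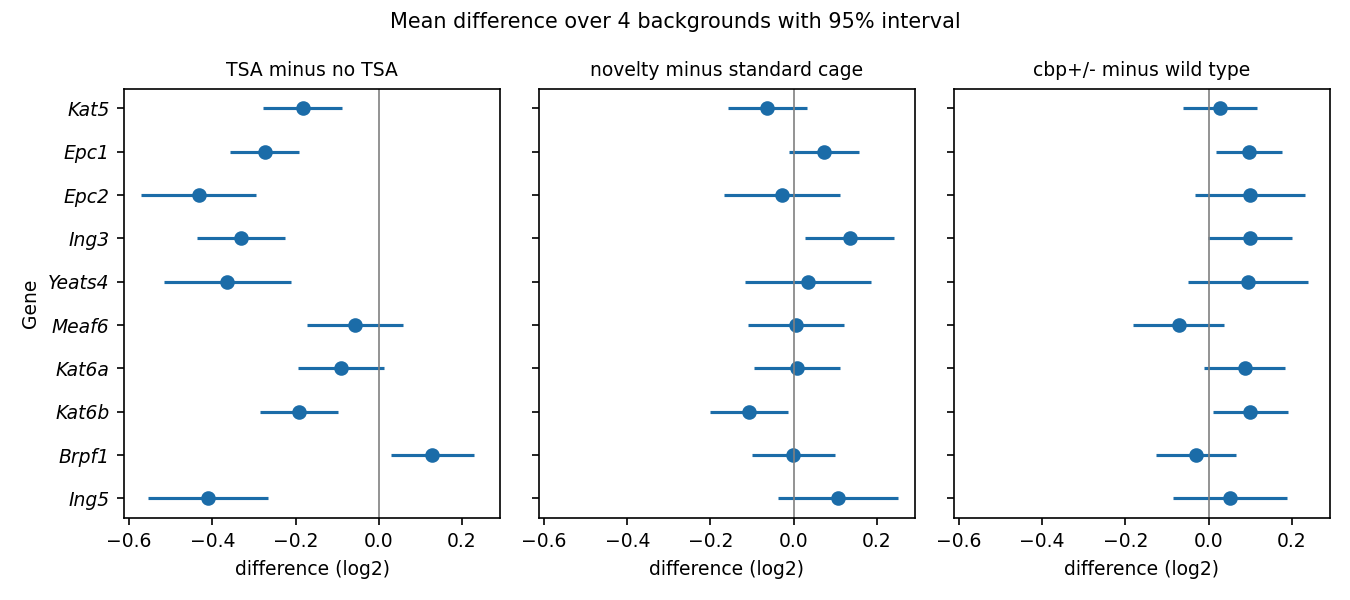
Mean log2 difference of each gene with its 95% interval for TSA (left), novelty (middle) and genotype (right), from the array-set fit of 28 arrays. TSA values reach -0.43, while all novelty and genotype values lie between -0.11 and 0.13.

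Other subunits of the same and related complexes were compared as a set of 64 genes in 7 lists. The lists were chosen with earlier results of these data known, so their counts beside those of all genes are descriptions. With TSA, limma called 5 of the 64 lower and 1 higher, where 1.85% of all genes were called lower and 2.66% higher. The median difference of the 64 was -0.04 on the log2 scale. Of 13 further NuA4 subunits 1 fell, Brd8, the bromodomain subunit (-0.16 ± 0.04, SE; adjusted p = 0.0214), and the list's median was -0.01. The other 12, among them the large activator-binding subunit and the remodelling ATPase of NuA4, did not pass. Of 7 further MOZ and HBO1 subunits 1 fell, Brpf3, a relative of Brpf1 (-0.20 ± 0.05; adjusted p = 0.0141), and the median was -0.06. The other 6, among them the HBO1 enzyme, did not pass.

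Srcap, the ATPase that exchanges histone H2A.Z and shares subunits with NuA4, fell by 0.29 on the log2 scale (SE 0.04; adjusted p = 0.000146), 1 of 5 in its list, whose median was -0.16. In SAGA and ATAC, the acetyltransferase complexes of GCN5 and PCAF, 2 of 21 fell: Sgf29 (-0.23 ± 0.06; adjusted p = 0.031), which reads histone methylation, and Tada3 (-0.17 ± 0.05; adjusted p = 0.0348), an adaptor subunit. None of 12 genes of the MOF complexes passed, with a median of -0.03, and neither did Crebbp (-0.06 ± 0.06) or the gene of its relative p300. Of the 4 ING and YEATS relatives Ing1, a reader found in deacetylase complexes, rose (0.23 ± 0.05; adjusted p = 0.00567), opposite to Ing3 and Ing5. Brd8 and Ing1 also passed without the block (adjusted p = 0.041 and 0.0227); Brpf3, Srcap, Sgf29 and Tada3 did not (adjusted p = 0.83, 0.698, 0.936 and 0.584). Leaving out any 1 array set ended the calls of Brd8, Ing1 and Tada3, leaving out set 3 or set 4 those of Brpf3 and Sgf29, and Srcap passed without each set. None of the 64 passed for novelty or genotype.

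**Figure D5:**
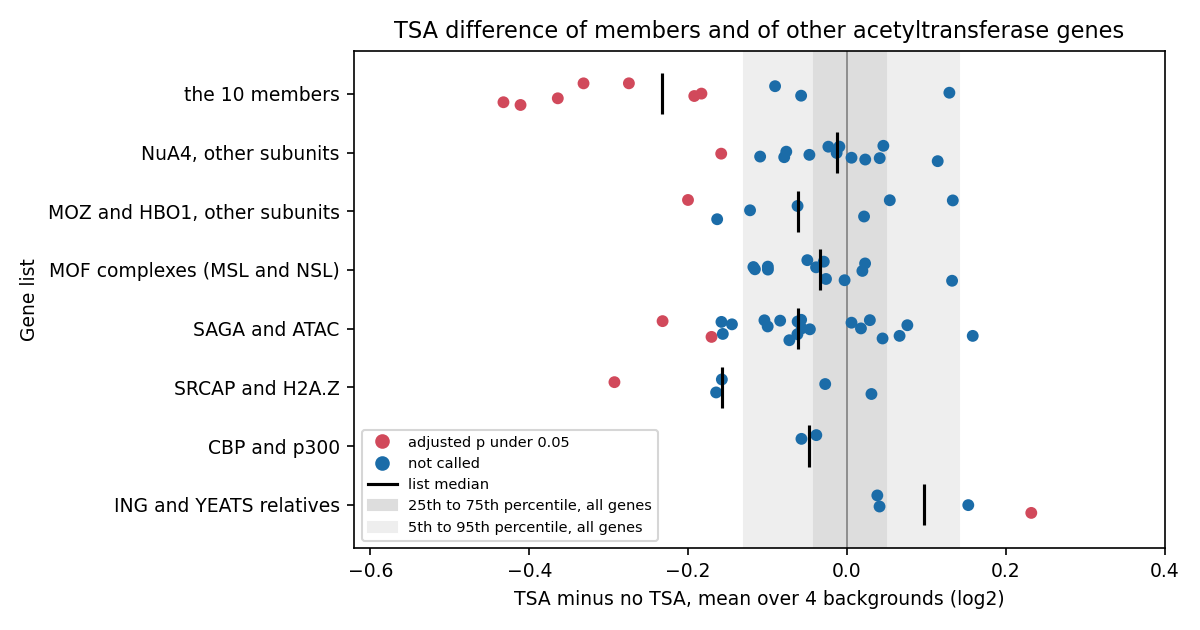
TSA difference on the log2 scale of the 10 genes and of the 64 genes in 7 lists of related complexes; each point is a gene, red marks an adjusted p under 0.05, black bars are list medians and grey bands hold the central part of all genes. The median is -0.23 for the 10 genes, which were chosen on this contrast. It lies between -0.16 and 0.10 for the 7 lists, which were chosen with earlier results of these data known.

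Of 30 measured markers of other cell types and of neurons, none passed for TSA. All 4 astrocyte, 3 oligodendrocyte, 4 microglia and 3 endothelial markers were below 0, with medians of -0.03, -0.15, -0.06 and -0.10, and the lowest of them were Mag and Mog, myelin genes named here after their values were seen, at -0.16 and -0.15. The mean level of the oligodendrocyte markers ran from 8.38 to 9.06 on TSA arrays and from 8.61 to 9.15 on vehicle arrays. The 5 neuron markers had a median of 0.00. The 6 choroid plexus markers were all above 0, with a median of 0.18, and their mean level ran from 5.44 up to 7.995 on TSA arrays and from 5.44 to 8.07 on vehicle arrays. The part of these cell types in the TSA values of the 10 genes was not tested; the values without the 3 choroid-raised arrays are given above. For genotype, 3 of the 30 fell in cbp+/- mice: Wfs1, a marker of CA1 pyramidal neurons, by 0.41 (adjusted p = 0.000343), Dcn, a meningeal gene, by 0.31 (adjusted p = 0.000522), and Gfap, the astrocyte filament, by 0.28 (adjusted p = 0.0127), and none of the 3 passed without the block. The marker lists were chosen with earlier results of these data known, and 100 of all 19938 genes were called lower for genotype. Dcn was the only 1 of 5 meningeal markers below 0, and the median of that list was 0.04. Below 0 were 3 of 4 astrocyte, 4 of 5 neuron and 3 of 3 oligodendrocyte markers, with medians of -0.09, -0.04 and -0.12. So were 2 of 3 endothelial, 1 of 6 choroid plexus and 0 of 4 microglia markers, with medians of -0.03, 0.13 and 0.02. For novelty none of the 30 passed.

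How far the 10 genes moved together from array to array differed between pairs. After each set's mean was taken out of the 24 arrays of sets 2 to 4, 35 of the 45 pairs of genes correlated above 0, with a median of 0.42. Once the group means were removed as well, the median over 28 arrays was 0.15, from -0.60 to 0.72. Ing3 and Yeats4 stayed closest (0.72), followed by Epc2 and Kat6b (0.70), Ing3 and Ing5 (0.65), Kat6a and Kat6b (0.62) and Yeats4 and Ing5 (0.61). Brpf1 ran against Ing3 (-0.60) and Ing5 (-0.56). All these values come from the same arrays and RNA pools, and they are given as descriptions.

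Over the same 24 arrays, with set means removed, the genes most like Epc2 were Ctcf, the insulator protein (r = 0.91), Utp20, a ribosome biogenesis factor (0.91), Gin1 (0.90), Kansl1l (0.88) and Gfm2, a mitochondrial translation factor (0.87). The nearest of the other 9 genes was Kat6b, 35th of all genes at 0.80. Those most like Ing5 were Kmt5b, a histone H4 methyltransferase (r = 0.92), Thap1, a zinc-finger factor (0.91), Gmeb2, a DNA-binding factor (0.87), Srsf6, a splicing factor (0.85) and Rabif (0.85). Of the other 9 genes Ing3 came next, 6th of all genes at 0.84, with Epc1 15th and Yeats4 16th, both at 0.80. The TSA differences of the 10 genes so named ran from -0.55 in Kmt5b to -0.21 in Thap1. These correlations include the differences between TSA and vehicle arrays.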

How the data were processed

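RNA from pooled hippocampi was measured on 28 single-colour Affymetrix arrays. The authors deposited log2 expression values summarised with RMA, per the submitters' processing notes, and used GeneSpring GX 11, per the labels' protocols; none of the sources used here names a genome build. Of 35556 transcript clusters, 21789 carry 1 gene symbol in the platform annotation, 1621 carry several and 12146 have no entry. The cluster with the highest mean was kept per symbol, giving 19938 genes. For arrays, depth does not apply; the number of arrays limits the precision.

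A linear model (limma 3.58.1 in R 4.3.3) was fitted to all genes and all 28 arrays with 8 group means, in which naive and vehicle arrays of the standard cage share a group per genotype (n = 5, otherwise n = 3), and array set as a block. P-values were adjusted by the Benjamini-Hochberg method over the 19938 genes, with a threshold of 0.05. Because the block removes set differences and the naive set holds no TSA array, averaged TSA values equal the mean of the 12 within-set differences. Values of a single standard-cage background, and the TSA difference between genotypes, also draw on the naive arrays. The block is used because the genes were defined on pairs of one set. The pairing rests on the label numbers, shifted for standard-cage vehicle (3 to 5 against 1 to 3), and on the correlation of deviations. Same-set arrays of different groups correlated at 0.42 to 0.81 (84 pairs). Standard-cage vehicle arrays correlated with arrays of the same number in other groups at -0.59 to -0.29 (12 pairs). Group means were subtracted first, so positive values within sets make those between sets negative. The negative values therefore add no separate evidence. The fit had 17 residual degrees of freedom with the block and 20 without.

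The 10 genes, the 7 lists of related complexes and the 7 marker lists were chosen with earlier results of these data known. Besides the 10 genes, the text names up to 3 genes per list with an adjusted p under 0.05 and the largest change, the 5 genes most like Epc2 and Ing5, and Crebbp. Alternatives were no block, a block on the number in the titles, vehicle controls only, repeated quantile normalization, array weights, an intensity trend, dim genes left out (mean under 6), the mean of all clusters of a gene, an adjusted p threshold of 0.1, arrays with raised choroid plexus markers (over 0.9 above the mean) left out, each array set left out and each array left out. Motifs were counted in 250 bases before 1 start per gene, the most upstream, in RefSeq's GRCm38.p6 table. Only entries of full length were used.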

Additional observations from a re-analysis of the deposited data

Results flagged for a closer look

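Across the 10 genes, 120 pairs of groups were compared. In 6 of them, all samples of a group moved the same way and all of the other group the opposite way. Such pairs were not counted over all genes, so there is no background rate and nothing is read from their number. The 6 also overlap, because the novelty and genotype entries of Kat5 and Meaf6 come from the same arrays. None of 20 groups of 5 arrays (the standard-cage controls of each genotype, for each gene) held a single array far from the rest. In vehicle arrays, novelty went with a higher Kat5 in each wild-type pair (mean 0.10) and a lower one in each cbp+/- pair (mean -0.20), a gap of 0.30 on the log2 scale. Meaf6 showed the same with means of 0.24 and -0.20 and a gap of 0.44. Seen as genotype differences, the same arrays gave Kat5 0.13 in the standard cage and -0.17 after novelty (gap 0.30), Meaf6 0.18 and -0.26 (gap 0.44) and Ing5 0.19 and -0.08 (gap 0.28). The 3 genes were then tested for novelty by genotype in vehicle arrays alone, a test chosen after seeing the data: limma gave -0.25 ± 0.12 for Kat5, -0.30 ± 0.14 for Meaf6 and -0.15 ± 0.18 for Ing5 (SE), each with an adjusted p of 0.997. For Ing5 the genotype difference after novelty was also below 0 with vehicle (-0.08) and above 0 with TSA (0.07), a gap of -0.16 that was not tested.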

How the results depend on the processing

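The count of the 10 genes called with TSA was 7 with the array-set block. It was 3 without the replicate block and 4 without array set 3, where 132 and 288 genes were called in all, against 899. It was 6 with the replicate block on the title number (567 genes in all), 5 without array set 2 (247) and 7 in each of the other settings run; without array set 4 (532) the 7 included Brpf1, which was higher, and not Kat6b. With each array left out in turn, the TSA value ranged from -0.48 to -0.40 for Epc2 and from -0.45 to -0.37 for Ing5. Since the genes were chosen on this contrast, these counts and values are no sign of stability. For novelty and genotype, none of the 10 genes was called under any setting run, with 0 other calls among 140 values each. Among the other genes named, the calls of Wfs1, Dcn, Gfap, Brpf3, Srcap, Sgf29 and Tada3 were lost without the block. Gfap and Tada3 also lost their calls without the naive arrays, without the choroid-raised arrays and without set 2 or set 4, and Tada3 without set 3 as well. Sgf29 and Tada3 passed in 17 and 18 of the 28 fits that left out 1 array. The cause of these changes was not tested. With 3 arrays per group, single-background TSA values have SEs of 0.08 to 0.15, and a difference between 2 of them has a larger SE than either.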
